A study of Mus musculus with 16 samples.

Results

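The genes described here are the G1 cyclins and their kinases, 8 of the 46078 genes in the count table, measured in haematopoietic stem cells (HSCs) of mouse bone marrow (BM). They were taken by symbol: the D cyclins Ccnd1, Ccnd2 and Ccnd3, their kinases Cdk4 and Cdk6, the E cyclins Ccne1 and Ccne2, and their kinase Cdk2. All 8 were in the table, and 7 of them passed the filter on low counts in every fit. Ccne1 failed it in the comparison of the genotypes in endosteal BM.

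D cyclins are short-lived proteins that accumulate when a cell receives growth signals, and they switch on CDK4 and CDK6, which begin to phosphorylate the retinoblastoma protein RB. E2F transcription factors are then released and drive a set of S-phase genes that includes the E cyclins, and cyclin E with CDK2 completes the phosphorylation of RB as the cell enters S phase. Most HSCs rest outside the cell cycle, and how many of them leave that state is set to a large extent at this step.

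The study sorted viable cells in pools of 30 with the surface markers of long-term HSCs (Lin-Sca1+cKit+, CD48-, CD150+) and sequenced their RNA by Smart-seq2, which copies whole polyadenylated transcripts from few cells. The cells came from untreated C57/Bl6 mice, from the bone fraction (endosteal BM) or the marrow fraction (central BM) of tibia, femur and humerus. One genotype was wild type (WT), and the other lacked Gfra2 (Gfra2-/-), which encodes a co-receptor of the GDNF family that cholinergic neurons need. The question was how HSCs near bone differ from those of the central marrow, and what changes when the cholinergic fibres are missing. There were 4 libraries each of endosteal WT, central WT and endosteal Gfra2-/- HSCs and 3 of central Gfra2-/- HSCs, named here by letters in table order. The study calls the samples of a group biological replicates, while its methods mention 3 sequenced replicates per condition. The tests below treat each library as independent. The ages of the mice, and how pools map to single mice, are not given in the sources used here.

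Reads counted on genes came to between 4416648 and 14003634 in endosteal WT libraries, 826487 and 3367289 in central WT libraries, 8519094 and 18550008 in endosteal and 7649803 and 14716308 in central Gfra2-/- libraries. Central WT was thus the shallowest group, and depth and group cannot be told apart in the comparisons that use it. The deleted gene had counts in some libraries labelled Gfra2-/-. Gfra2 had 47 counts in library B and 9 in library D labelled endosteal Gfra2-/-, and at most 4 counts in each of the other 13. Scaled to depth (CPM, defined below), these were 2.37 and 0.789, while the 4 counts of central WT library C were 5.36. The median in WT was 0 CPM in both compartments, so low values of Gfra2 cannot check a label. The text therefore speaks of libraries labelled Gfra2-/-.

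The summed level of 7 HSC markers (Slamf1, Kit, Ly6a, Procr, Hlf, Mecom and Fgd5) lay between 1251 and 2229 CPM (counts per 1000000 of the TMM-normalized total of the library). Much of the sum was Kit, with group means from 602 to 783 CPM. Slamf1, which encodes CD150, had group means from 29.7 to 62.3 CPM and fell to 6.34 CPM in central WT. Some libraries also had counts for markers of other blood cells, against which the sort gated with a lineage panel of CD11b, Gr1, Ter119, B220 and CD3e. The 6 B cell markers summed to 1820 CPM in endosteal library D labelled Gfra2-/-, against 390 CPM in central WT library D and 351 CPM in central library C labelled Gfra2-/-, the next highest. Cd79b, which encodes a chain of the B cell receptor, was the most abundant of them, with 613 CPM in its highest library. The 8 neutrophil and monocyte markers summed to 2978 CPM in central WT library C, 2363 CPM in central WT library D and 1839 CPM in central library C labelled Gfra2-/-, and to between 477 and 996 CPM in the other 12. Most of the sum in central WT library C was Lyz2, at 2438 CPM. S100a8 and S100a9 were highest in central WT library D, at 864 and 796 CPM. The 8 erythroid markers reached 660 CPM in endosteal library D labelled Gfra2-/- and at most 165 CPM elsewhere. T cell markers summed to 43.7 CPM in central library B labelled Gfra2-/- and to at most 2.7 CPM in the others. Megakaryocyte markers summed to between 34.1 and 483 CPM and stromal markers to between 0.284 and 61.1 CPM. Endothelial markers, mostly Emcn, summed to between 48.2 and 323 CPM, while Cdh5, a defining endothelial gene, was at 0 in all libraries. Cd48, absent from the surface of the sorted cells, reached at most 17.4 CPM. Cd34, which is low on long-term HSCs, had a median of 328 CPM. Flt3, a marker of multipotent progenitors, had a mean of 12.03 CPM in endosteal and 2.86 CPM in central WT, and of 43.8 CPM in endosteal and 28.8 CPM in central libraries labelled Gfra2-/- (between the genotypes in central BM, edgeR unadjusted p = 0.0672). No marker gene passed an FDR of 0.1 in edgeR. Between endosteal and central libraries labelled Gfra2-/-, DESeq2, which called 1.22% of all its genes there, called 3 marker genes. The endothelial Kdr had 0 counts in all 4 endosteal libraries and between 3.48 and 63.9 CPM in the central ones. The erythroid Klf1 had between 1.27 and 28.4 CPM in the endosteal libraries and at most 0.197 CPM in the central ones, and the stromal Col1a1 between 0.263 and 18.5 CPM against 0 counts. Between the genotypes in central BM, where it called 3.44% of its genes, DESeq2 called the megakaryocyte genes Pf4 (edgeR log2 fold change 4.23) and Itgb3 (-2.51). The part of these cells in the values below was not tested, and the values of Cdk4, Ccnd3 and Ccnd1 are also given without single libraries named here.

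Cyclin D2 and the D-type kinases were among the most abundant transcripts of these cells. To compare genes, CPM were divided by the length of the merged exons in kilobases (kb). The median level over the 15 libraries was 146 CPM per kb for Cdk4, 105 for Ccnd2, 47.7 for Cdk6, 22.6 for Ccnd3, 22.4 for Cdk2, 9.47 for Ccnd1, 8.56 for Ccne2 and 0.275 for Ccne1. By median CPM, Ccnd2, Cdk6 and Cdk4 stood at the percentiles 99.7, 99.5 and 99.2 of the 15416 genes kept over all libraries, Ccnd3 at 95.7, Cdk2 at 92.2, Ccnd1 at 69.2, Ccne2 at 59.6 and Ccne1 at 18.7. By both measures the medians of Cdk4, Ccnd2 and Cdk6 were above those of the other 5 genes. The summed level of the 3 D cyclins exceeded that of the 2 E cyclins in 15 of 15 libraries, with medians of 143 and 14.2 CPM per kb. Neighbours in this order overlapped widely: Ccnd3 ranged from 6.19 to 39.2 CPM per kb and Cdk2 from 11.3 to 31.2.

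**Figure D1:**
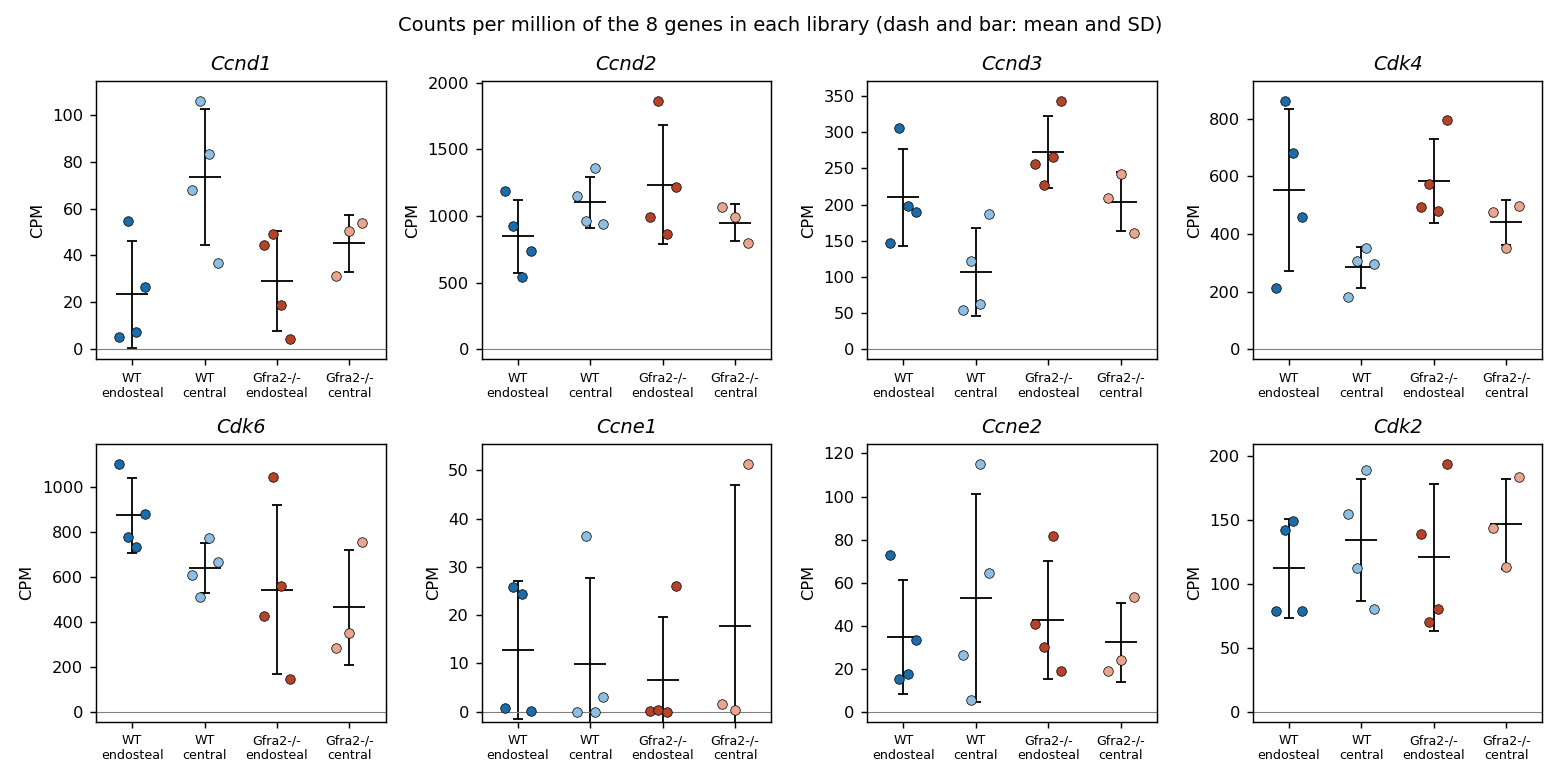
CPM (y axis, linear, each gene on its own scale) of the 8 genes in the 4 groups (x axis). Points are libraries in the order A to D, the dash is the group mean and the bar its SD, which is not drawn below 0. Cdk4 in central WT lies between 180 and 351 CPM, below the 3 central libraries labelled Gfra2-/-, and Ccne1 is at most 3.03 CPM in 10 of the 15 libraries.

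The D cyclins differ in how they are regulated and where they are used, with cyclin D2 and cyclin D3 serving most blood cells. Ccnd2 (chromosome 6, 127125162 to 127152193 on the minus strand in GRCm38) was the highest D cyclin per kb in 15 of 15 libraries and made up 67.9 to 87.6% of their sum. Ccnd3 (chromosome 17, 47505051 to 47599691, plus strand) made up 4.24 to 27.8%, and Ccnd1 (chromosome 7, 144929931 to 144939925, minus strand) 0.515 to 16.2%. Ccnd3 was above Ccnd1 in 12 of the 15 libraries, and the 3 exceptions were central WT libraries A, B and C. The mean share of Ccnd3 was 8.78% ± 5.81 (SD, n = 4) in central WT HSCs, against 20.98% ± 6.92 (SD, n = 4) in endosteal WT HSCs. In libraries labelled Gfra2-/- it was 19.6% ± 5.93 (SD, n = 4) for endosteal pools and 17.3% ± 1.68 (SD, n = 3) for central pools.

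**Figure D2:**
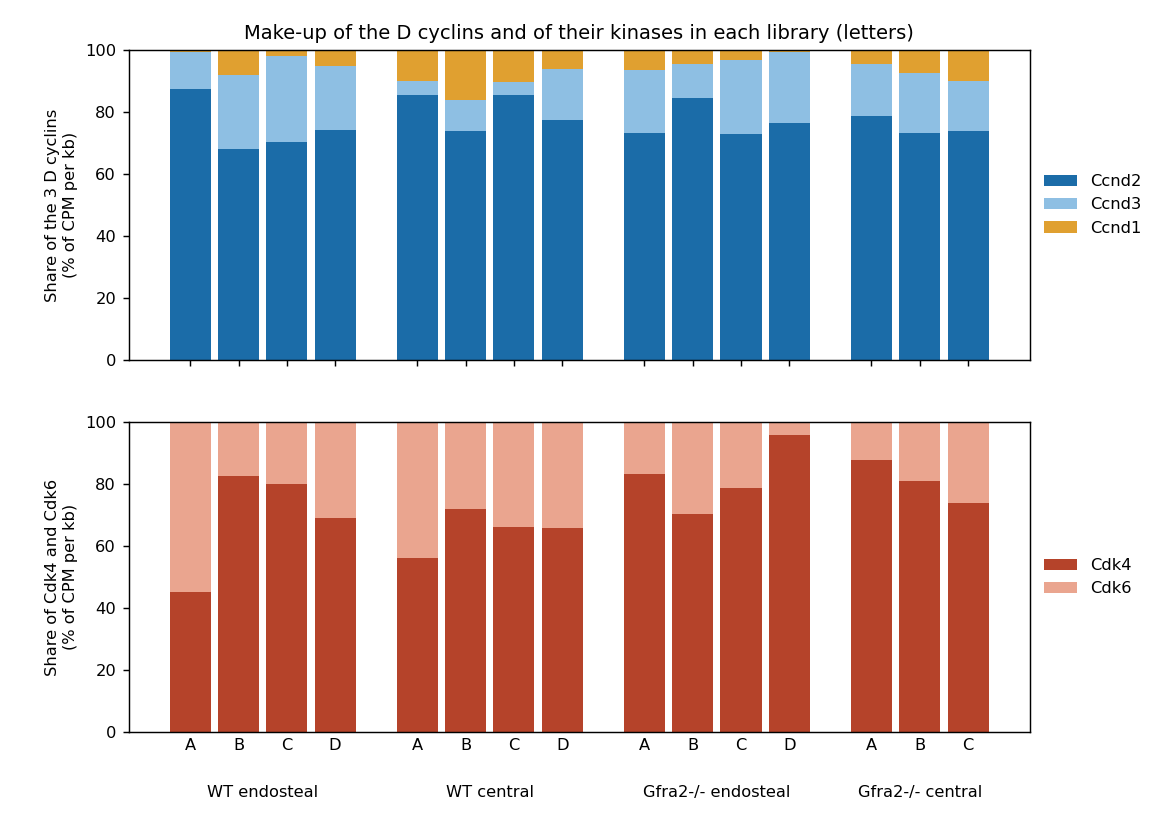
Share of each D cyclin in the sum of the 3 (upper panel) and of Cdk4 and Cdk6 in their sum (lower panel), in percent of CPM per kb, for each library (x axis, letters within the 4 groups). Ccnd2 takes at least 67.9% of the D cyclin sum in every library, and Cdk6 exceeds Cdk4 only in endosteal WT library A.

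Ccnd2 had 1187, 924, 538 and 740 CPM in endosteal WT pools A to D and 1148, 964, 1358 and 939 CPM in central WT pools A to D. It had 990.5, 1865, 862 and 1222 CPM in endosteal pools A to D labelled Gfra2-/-, and 1066, 989.5 and 794 CPM in central pools A to C. Its groups overlapped in every comparison, and endosteal library B labelled Gfra2-/- was the highest of all 15. Its coefficient of variation over the 15 libraries, 29.5%, was larger than that of 34.6% of the 500 genes nearest to it in level.

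Ccnd3 had 147, 305.5, 199 and 189 CPM in endosteal WT pools A to D, against 54.3, 122.5, 63.0 and 186 CPM in central WT pools A to D. In libraries labelled Gfra2-/- it had 256.5, 227, 265 and 344 CPM in endosteal A to D and 209, 242 and 161 CPM in central A to C. The low values were those of central WT libraries A, B and C, while central WT library D lay within the range of the other groups. The highest value came from endosteal library D labelled Gfra2-/-, the one with the most B cell markers.

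Ccnd1 had 5.36, 54.6, 7.36 and 26.6 CPM in endosteal WT pools A to D and 67.9, 106, 83.1 and 36.7 CPM in central WT pools A to D. It had 44.6, 49.1, 18.9 and 4.12 CPM in endosteal pools A to D labelled Gfra2-/-, and 31.3, 50.3 and 53.8 CPM in central pools A to C. Central WT held the 3 highest values, but library D of that group lay below endosteal WT library B, so that the groups overlapped. Ccnd1 had the largest coefficient of variation of the D cyclins, 68.0%. This was larger than that of 55.2% of the 500 genes nearest in level. For Ccnd3 that share was 58%, so Ccnd1 was not the more uneven of the pair for its level.

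CDK4 and CDK6 bind the same D cyclins. Cdk4 (chromosome 10, 127063534 to 127067920, plus strand) had 213, 862, 682.5 and 457.5 CPM in endosteal WT pools A to D and 180, 305, 351 and 297 CPM in central WT pools A to D. It had 493.5, 574, 479 and 794 CPM in endosteal pools A to D labelled Gfra2-/-, and 475, 352 and 495 CPM in central pools A to C. All 4 central WT values were low, and endosteal WT library A was the single endosteal library that fell among them.

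Cdk6 (chromosome 5, 3341485 to 3531008, plus strand) had 1105, 780, 732.5 and 879 CPM in endosteal WT pools A to D and 609, 509, 772 and 667 CPM in central WT pools A to D. It had 425, 1045, 560 and 146 CPM in endosteal pools A to D labelled Gfra2-/-, and 286, 353 and 756 CPM in central pools A to C. The WT libraries were close together and those labelled Gfra2-/- were scattered: the SD was 166 CPM in endosteal and 110 CPM in central WT, against 376 and 255 CPM. The lowest value, 146 CPM, came from endosteal library D labelled Gfra2-/-, the library with 1820 CPM of B cell markers, which was also lowest in Ccnd1 and highest in Ccnd3 and Cdk2. Cdk4 exceeded Cdk6 per kb in 14 of 15 libraries, the exception being endosteal WT library A, and Cdk6 made up 4.08 to 54.7% of their sum.

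The promoter of Cdk4, the member with the highest level per kb, carries an arrangement of motifs that few promoters share. The E-box CACGTG, which reads the same on both strands and is the sequence bound by MYC with its partner MAX among other factors, occurred 4 times in the window from 250 bases before to 50 bases after the RefSeq start of Cdk4. At least 1 match was found in 7.15% of the 32851 RefSeq promoter windows of this length, and 4 or more in 8 windows (0.0244%). The 250 bases before the start (chr10:127063285-127063534 in GRCm38.p6, plus strand) are printed here because all 4 matches lie in them, in capitals:
Cdk4: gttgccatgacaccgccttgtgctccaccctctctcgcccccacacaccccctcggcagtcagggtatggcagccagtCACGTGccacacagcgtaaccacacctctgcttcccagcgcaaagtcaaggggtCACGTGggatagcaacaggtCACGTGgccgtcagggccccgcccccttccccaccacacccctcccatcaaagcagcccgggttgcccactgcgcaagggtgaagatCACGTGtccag
Windows were at hand for 5 of the 8 genes (Ccnd3, Cdk4, Cdk6, Ccne1 and Cdk2). Among the others, the window of Cdk6 held 1 such match and those of Ccnd3, Ccne1 and Cdk2 none. The E2F letters TTTGGCGC, TTTCCCGC, TTTGCCGC or TTTCGCGC, searched on both strands, occurred once in the window of Cdk2, as in 2.26% of all windows, and in none of the other members' windows. These are matches of letters, and binding was not measured.

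Myc itself, looked at because of these motifs and thus after its values had been seen, had 133, 163, 119 and 142 CPM in endosteal WT pools A to D and 220, 342, 198 and 237 CPM in endosteal pools A to D labelled Gfra2-/-. These groups did not overlap (6.24% of all genes had none), and the log2 fold change was 0.84 with an SE of 0.26 (edgeR's quasi-likelihood test, unadjusted p = 0.00857), which failed the Benjamini-Hochberg adjustment over all genes (adjusted p = 0.696). For Cdk4 the same comparison gave a log2 fold change of 0.08 with a 95% interval from -0.77 to 0.93. Each group enters 2 of the 4 pairwise comparisons, and the other comparisons gave Myc and Cdk4 1.01 and 0.94 between the WT compartments, 0.78 and 0.41 between the compartments labelled Gfra2-/-, and 1.07 and 0.61 between the genotypes in central BM. Myc did not pass an FDR of 0.1 in any of them.

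Cyclin E1 and cyclin E2 both activate CDK2. Ccne1 (chromosome 7, 38097984 to 38107534, minus strand) was nearly silent in most pools and plainly present in a few. It had 0.731, 25.8, 24.4 and 0.245 CPM in endosteal WT pools A to D and 0, 36.4, 0 and 3.03 CPM in central WT pools A to D. It had 0.135, 0.303, 0 and 26.1 CPM in endosteal pools A to D labelled Gfra2-/-, and 1.64, 0.378 and 51.4 CPM in central pools A to C. No library lay between 3.03 and 24.4 CPM, every group held both kinds, and the values above the gap rested on 117 to 400 counts. A spread of this size was common at so low a level. The coefficient of variation of Ccne1, 148%, was larger than that of 56.8% of the 500 genes nearest in level. In the 3 libraries at 0, a count of 0 allows up to 2.72 and 4.02 CPM in central WT libraries A and C and 0.347 CPM in endosteal library C labelled Gfra2-/- (3 counts, counting error only).

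Ccne2 (chromosome 4, 11191351 to 11204779, plus strand) was found in every library. It had 72.6, 15.1, 17.7 and 33.5 CPM in endosteal WT pools A to D and 26.3, 5.60, 115 and 64.4 CPM in central WT pools A to D. It had 40.9, 29.9, 81.5 and 18.8 CPM in endosteal pools A to D labelled Gfra2-/-, and 19.1, 24.3 and 53.4 CPM in central pools A to C. Ccne2 was above Ccne1 per kb in 10 of the 15 libraries, and the 5 in which the order turned were the 5 with Ccne1 at 24.4 CPM or more. The summed level of both ranged from 6.09 to 34.6 CPM per kb.

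**Figure D3:**
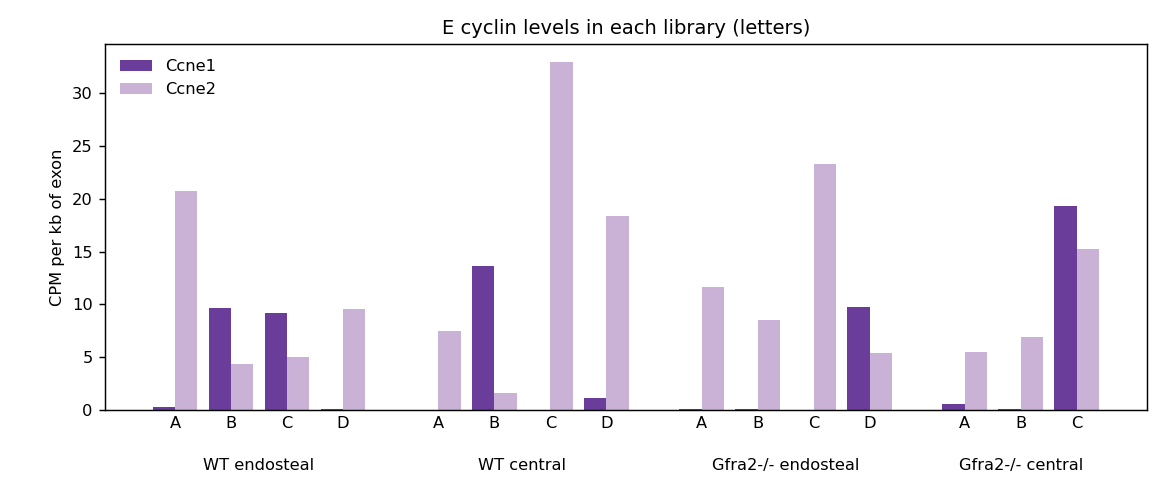
Level of Ccne1 (dark bars) and Ccne2 (light bars) in CPM per kb of exon (y axis, linear, from 0) for each library (x axis, letters within the 4 groups). Ccne1 is above Ccne2 in 5 libraries, endosteal WT B and C, central WT B, and libraries labelled Gfra2-/- D (endosteal) and C (central).

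Cdk2 (chromosome 10, 128697939 to 128705031, minus strand), which both E cyclins need, ranged from 70.1 to 194 CPM with a median of 139 CPM. Group means were 112 CPM ± 38.9 (SD, n = 4) in endosteal WT, and 134 CPM ± 47.6 (SD, n = 4) in central WT. Libraries labelled Gfra2-/- had 121 CPM ± 57.5 (SD, n = 4) when endosteal and 147 CPM ± 35.3 (SD, n = 3) when central. These differences were smaller than the SD of the groups. Cdk2 was also one of the steadier genes of its level: its coefficient of variation, 34.0%, was larger than that of 18% of the 500 genes nearest in level, against 82.8% for Cdk4 and 82.4% for Cdk6.

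Across the 15 libraries, the pair of these 8 genes with the closest pattern was Ccnd3 and Cdk4, with a Pearson correlation of log2(CPM + 1) of 0.73 and a Spearman correlation of 0.76, the highest of the 28 pairs, whose median was -0.15. The Pearson correlation was 0.62 without the 2 libraries farthest from the median of Cdk4 and 0.68 without central WT. The Spearman correlation was 0.65 and 0.54 in the same order. The points share depth and group, and the value is a description. Among the 5476 other genes with at least 10 counts in every library, the most like Ccnd3 were Actn4 (Pearson correlation 0.91), Fmnl1 (0.86) and Lonp2 (0.86), and the most like Cdk4 were Acadl (0.86), Coro1a (0.85) and Psmd1 (0.84). They were Gna12, Ndufaf2 and Ppt2 for Ccnd1 (all 0.83), Gsk3b (0.79), Hk2 (0.78) and Azi2 (0.76) for Ccnd2, and Rps27l (0.86), Syncrip (0.84) and Wdr82 (0.82) for Cdk6. For Ccne2 they were Kat2b (0.81), Bicral (0.78) and Smad5 (0.78), and for Cdk2 Mdn1 (0.89), Arrdc1 (0.76) and Grn (0.73).

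The first comparison was between endosteal and central WT HSCs. Cdk4 and Ccnd3 were each 1.9-fold higher and Ccnd1 3.2-fold lower in endosteal HSCs, and none of these differences passed an FDR of 0.1 over the 11181 genes tested. That threshold was passed by 0 genes of the table (0%), and DESeq2, which called 2.14% of its genes, also called 0 of the 8. At an unadjusted p under 0.05 edgeR called 1 of the 8, Cdk4, where 7.89% of all genes were called. Central WT libraries A and C hold fewer than 1500000 reads counted on genes, and without them the unadjusted p of Cdk4 was 0.117. It was also above 0.05 with spike-in size factors, DESeq2, the size factors of DESeq2 and thinned counts, and without endosteal WT library B or C or central WT library A or D. No member's groups were free of overlap (6.36% of all genes).

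For Cdk4 the log2 fold change was 0.94 with an SE of 0.39 (edgeR's quasi-likelihood test, unadjusted p = 0.0322, Benjamini-Hochberg adjusted p = 0.594). For Ccnd3 it was 0.95 with an SE of 0.46 (adjusted p = 0.633), and for Ccnd1 -1.66 with an SE of 0.81 (adjusted p = 0.633). The other 5 had smaller differences: Cdk6 0.43, Ccne1 0.34, Cdk2 -0.28, Ccnd2 -0.40 and Ccne2 -0.62 on the log2 scale. The 8 genes split evenly, 4 higher and 4 lower, with a median of 0.03, equal to the median of 0.03 over all genes tested.

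Libraries with under 0.5% of spike-in reads, 1 in each group, were compared apart from the 11 others. The log2 ratio of mean CPM for Cdk4 was 0.62 in the former and 1.07 in the latter, for Ccnd3 0.02 and 1.44, and for Ccnd1 -0.47 and -1.93. Without central WT library D, the log2 fold change of Ccnd3 was 1.34 (edgeR, unadjusted p = 0.0143, adjusted p = 0.409) and that of Ccnd1 -1.92 (unadjusted p = 0.0446, adjusted p = 0.492), while that of Cdk4 was 0.94 (unadjusted p = 0.0611). Without central WT library C, which has the highest sum of neutrophil and monocyte markers, mostly Lyz2, they were 0.77 for Ccnd3, -1.59 for Ccnd1 and 1.07 for Cdk4. Without both libraries under 1500000 counted reads, Ccnd3 was 0.43. With all libraries thinned to the depth of the smallest, the values were 0.83 for Cdk4, 1.07 for Ccnd3 and -1.71 for Ccnd1. With size factors from spike-in reads they were 0.72, 0.14 and -0.98, relative to the median of all genes.

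Reads were counted without strand, and those that fit more than one gene were set aside. Ccnd1 shares 1100 of its 4709 exon bases with LTO1 on the opposite strand, Cdk4 shares 641 of 3249 with Tspan31, and Ccnd3 shares 361 of 8775 with Bysl. Mean levels in endosteal and central WT were 26.5 and 9.73 CPM for LTO1, 42.2 and 10.4 CPM for Tspan31 and 32.5 and 5.03 CPM for Bysl. Reads set aside as ambiguous came to 14.1 to 24.0% of the counted reads in endosteal WT and to 20.3 to 33.0% in central WT libraries. Ccnd3-ps, a processed pseudogene named for Ccnd3 and looked at after its values were seen, had 14.2 CPM in endosteal and 0.855 CPM in central WT on average. The part of these overlaps in the differences was not tested.

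**Figure D4:**
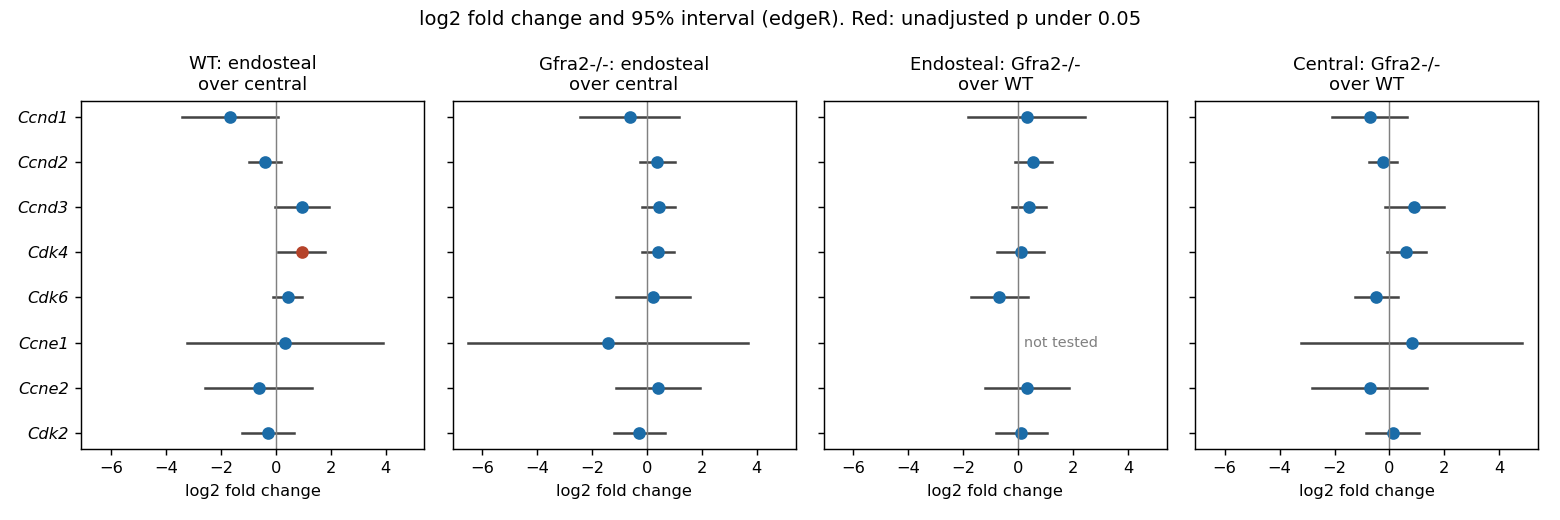
log2 fold change (x axis) and 95% interval of the 8 genes (y axis) from edgeR in the 4 pairwise comparisons (panels). Only Cdk4 between endosteal and central WT HSCs, at 0.94, has an unadjusted p under 0.05 (red), and Ccne1 has the widest intervals.

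The same comparison of compartments was made in libraries labelled Gfra2-/-. The signs of Ccnd1, Ccnd3 and Cdk4 were those of the WT comparison, with smaller values. Ccnd3 and Cdk4 had log2 fold changes of 0.42 (SE 0.26) and 0.41 (SE 0.26), Ccnd2 0.38 (SE 0.28), Ccnd1 -0.64 (SE 0.79) and Ccne1 -1.42 (SE 2.24). Over 16 alternatives Ccnd3 ran from 0.28 to 0.75, Cdk4 from 0.22 to 0.54, Ccnd2 from 0.10 to 0.52 and Ccnd1 from -1.58 to -0.28. At an FDR of 0.1 edgeR called 0 of the 8, as it called 0% of the 13860 genes tested, and DESeq2 called 0 of them where it called 1.22% of its genes. At an unadjusted p under 0.05 edgeR called 0 of the 8 (4.79% of all genes), and no member's groups were free of overlap (7.34%). Of the 8, 5 were higher and 3 lower, where 51.6% of all genes were higher. The median was 0.30 against 0.03 over all genes, and over 16 alternatives it ran from -0.23 to 0.39.

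An interaction term fitted to all 15 libraries asked whether the compartments differed by another amount in libraries labelled Gfra2-/- than in WT. The term with the smallest p among the members was that of Ccnd2, whose difference was -0.40 in WT and 0.38 in libraries labelled Gfra2-/-. It was 0.76 with an SE of 0.39 (edgeR's quasi-likelihood test, unadjusted p = 0.0709, adjusted p = 0.719). For Cdk4 the term was -0.56 with a 95% interval from -1.63 to 0.51, for Ccnd3 -0.55 with an interval from -1.70 to 0.60, and for Ccnd1 1.01 with an interval from -1.43 to 3.46, so a difference between the genotypes was not detectable. At an FDR of 0.1, 0 of the 8 and 0% of the 15416 genes were called by edgeR, and 0 of the 8 and 1.18% of its genes by DESeq2. At an unadjusted p under 0.05 edgeR called 0 of the 8 and 6.97% of all genes.

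Between the genotypes in endosteal BM, Ccnd2 was 1.46-fold higher and Cdk6 1.61-fold lower in libraries labelled Gfra2-/-, both within the spread of the pools. The log2 fold change of Ccnd2 was 0.55 (SE 0.30, edgeR adjusted p = 0.764) and that of Cdk6 -0.68 (SE 0.46, adjusted p = 0.827). Without library D, which carries the B cell markers, the value of Cdk6 was -0.38, and that of Ccnd2 0.54. Without library B, the one with 47 counts of Gfra2, the value of Ccnd2 was 0.27. The other 5 genes tested lay between 0.08 and 0.38 on the log2 scale. At an FDR of 0.1 edgeR called 0 of the 7 members tested and 0% of the 12970 genes, and DESeq2 0 of the 7 and 1.03% of its genes. At an unadjusted p under 0.05 edgeR called 0 of the 7 (6.69% of all genes), and no member's groups were free of overlap (6.24%). Of the 7 genes 6 were higher (51.5% of all genes), with a median of 0.30 against 0.03 over all genes. But over 17 alternatives 3 to 6 were higher and the median ran from -0.04 (without endosteal WT library A) to 0.37.

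Between the genotypes in central BM, Cdk4 was 1.53-fold higher in libraries labelled Gfra2-/-, and its groups did not overlap: the 4 central WT values ended at 351 CPM and the 3 others began at 352 CPM. It was the 1 of 8 members without overlap, in a comparison in which 12.4% of all genes had none. The log2 fold change was 0.61 with an SE of 0.32 (edgeR's quasi-likelihood test, unadjusted p = 0.0816, adjusted p = 0.63). The log2 ratio of mean CPM was 0.74 in libraries with little spike-in and 0.57 in the others. Ccnd3 followed with a log2 fold change of 0.90 (SE 0.49, edgeR adjusted p = 0.648). Its log2 ratio of mean CPM was -0.21 in libraries with little spike-in and 1.497 in the others. With size factors from spike-in reads its log2 fold change was -0.01 relative to the median of all genes. Without central WT libraries A and C it was 0.36. Without central WT library C, central WT library D, or central library B or C labelled Gfra2-/-, the log2 fold change of Cdk4 was 0.73, 0.62, 0.74 and 0.49, and that of Ccnd3 0.72, 1.30, 0.74 and 1.02. Ccnd1 and Cdk6 were lower, by a log2 fold change of -0.72 (SE 0.63) and -0.48 (SE 0.36). Over 17 alternatives Ccnd1 ran from -0.96 to -0.07 and Cdk6 from -1.05 to -0.23. At an FDR of 0.1 edgeR called 0 of the 8 and 0.051% of the 11772 genes, and DESeq2 0 of the 8 and 3.44% of its genes. At an unadjusted p under 0.05 edgeR called 0 of the 8 and 8.73% of all genes. Both this comparison and the one between the WT compartments use the same 4 central WT libraries, so the low Cdk4 and Ccnd3 of these libraries enter both. The median of the 8 genes was -0.06, against 0.03 over all genes.

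The genes that surround this step of the cell cycle were followed in the same fits, by lists compiled from general knowledge. The inhibitors of these kinases were low. Cdkn2d (p19), the most abundant of the 7, had a median of 43.3 CPM, and Cdkn2a and Cdkn2b, which encode the INK4 proteins p16 and p15, were at 0 in all 15 libraries. Cdkn1c (p57), an inhibitor linked to HSC quiescence, had a mean of 17.4 CPM ± 18.4 (SD, n = 4) in endosteal WT and of 70.6 CPM ± 59.3 (SD, n = 4) in central WT HSCs. This was a log2 fold change of -2.04 with an SE of 1.06 (edgeR, unadjusted p = 0.0753). Its log2 fold change was the one among the tested inhibitors with the smallest p in any pairwise comparison, and 0 of them passed the FDR or an unadjusted p under 0.05 in any comparison. Cdkn2c (p18) and Cdkn2d had log2 fold changes of -1.33 and 0.59 between endosteal and central libraries labelled Gfra2-/-.

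Among the RB family, the substrates of these kinases, Rbl2 (p130), the member typical of resting cells, and Rbl1 (p107) had differences of opposite sign between the genotypes in central BM. The log2 fold change was 2.12 (SE 0.67, unadjusted p = 0.00799, edgeR adjusted p = 0.36, DESeq2 adjusted p = 0.0906) for Rbl2 and -1.41 (SE 0.55, unadjusted p = 0.0247, adjusted p = 0.487) for Rbl1 in libraries labelled Gfra2-/-, and both pairs of groups were free of overlap, as were those of 12.4% of all genes. Without central WT library C the value of Rbl1 was -0.999 (unadjusted p = 0.0872). Rbl2 was the most abundant of the 3 by CPM, with a median of 83.7 CPM and a range from 7.75 to 194 CPM. Rb1 itself had -0.88 (SE 0.60) between endosteal and central libraries labelled Gfra2-/-, its smallest p.

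Of the 10 E2F and DP factors, Tfdp2 was the most abundant, with a median of 97.7 CPM, and E2f1 was higher in endosteal WT HSCs by 1.93 on the log2 scale (SE 0.83, unadjusted p = 0.0359, edgeR adjusted p = 0.594), and by 1.503 (unadjusted p = 0.123) without endosteal WT library A. E2f6 and E2f4 had log2 fold changes of 1.21 and -0.76 between the genotypes in endosteal BM, both with an unadjusted p above 0.05. Of the genes that activate the kinases, Ccnh, a subunit of the CDK-activating kinase, was higher in endosteal WT by 1.43 (SE 0.52, unadjusted p = 0.0161, adjusted p = 0.537) and Cdk7, its kinase, by 0.88 (SE 0.49). The phosphatase Cdc25a had -1.16 (SE 0.61) between endosteal and central libraries labelled Gfra2-/-, and the chaperone Cdc37 was the most abundant of the 5 at a median of 223 CPM. Of the genes that degrade cyclins, Ambra1, which targets D cyclins, had -2.33 (SE 0.90, unadjusted p = 0.0235, edgeR adjusted p = 0.483, DESeq2 adjusted p = 0.0822) between the genotypes in central BM, and -1.29 (unadjusted p = 0.184) without central WT library A. Gsk3b, the kinase that marks cyclin D1 for export and destruction, had 1.23 (SE 0.50, unadjusted p = 0.0323, adjusted p = 0.737) between the genotypes in endosteal BM, and 0.55 (unadjusted p = 0.201) without library B labelled Gfra2-/-. Skp2 had 2.17 (SE 1.03) between the WT compartments, and Skp1, the most abundant of the 10, had a median of 316 CPM.

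The 17 E2F target genes, which stand for entry into S phase, were all tested, and 0 of them passed the FDR of edgeR in any main comparison. Over 17 alternatives at most 1 passed an FDR of 0.1 between the genotypes in central BM. Between endosteal and central libraries labelled Gfra2-/-, 15 of the 17 were higher, where 51.6% of all genes were. Their median was 0.60 against 0.03 over all genes. In the same comparison, 10 of 10 genes of cyclin degradation were higher (median 0.32), as were 5 of 5 tested S, G2 and M genes (median 0.69). Over 16 alternatives these medians ran from -0.15 to 0.64 and from -0.37 to 1.34. The medians of the CDK inhibitors and pocket proteins were -0.06 and -0.19. Of the E2F targets, 3 had an unadjusted p under 0.05 (4.79% of all genes), all of them enzymes of nucleotide synthesis. These were Rrm1 (log2 fold change 1.04, SE 0.29, unadjusted p = 0.00664), Rrm2 (1.64, SE 0.50, unadjusted p = 0.00923) and Tyms (2.07, SE 0.64, unadjusted p = 0.0106), with edgeR adjusted p = 0.896 for each. DESeq2 called the same 3, where it called 1.22% of its genes, with adjusted p = 0.0853, 0.0982 and 0.0649. Tyms had 548 CPM in endosteal library B labelled Gfra2-/- and between 109 and 130 CPM in the other 3, and without library B its log2 fold change was 1.13 (edgeR, unadjusted p = 0.0129). Without endosteal library D, 13 of the 17 were higher with a median of 0.45, and over all 16 alternatives the median ran from 0.27 to 0.98. Between these same compartments 5 of the 7 HSC markers were lower, with a median of -0.48, among them Procr at -0.80 (edgeR, unadjusted p = 0.0493). The part of this shift in the values of the E2F targets was not tested. Between the WT compartments 13 of 17 E2F targets were higher in endosteal HSCs (51.5% of all genes), with a median of 0.35. The 1 gene with an unadjusted p under 0.05 was Top2a, at -1.39 (edgeR, unadjusted p = 0.0341, adjusted p = 0.594, where 7.89% of all genes were called). Without endosteal WT library D it was -2.11, and with single libraries left out its unadjusted p reached 0.103. Over 18 alternatives the number of higher genes ran from 7 to 14 and the median from -0.07 (spike-in size factors) to 0.46. Between the genotypes the median was 0.08 in endosteal BM and -0.29 in central BM, where Mcm2 (-1.003, SE 0.445), Mki67 (-1.88, SE 0.83) and Top2a (-1.27, SE 0.49) were lower at an unadjusted p under 0.05, where 8.73% of all genes were called (edgeR adjusted p = 0.555, 0.551 and 0.48). Mcm2 was -0.47 without central WT library C, Mki67 -1.22 without central WT library D and Top2a -0.88 without central library B labelled Gfra2-/-, each with an unadjusted p above 0.05. Mcm6, a helicase subunit, was the most abundant of the list at a median of 441 CPM.

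Of the 6 cyclins of S, G2 and M phase and their kinase Cdk1, Ccna1 was at 0 in all libraries and the other 5 were tested. Ccnb1, the cyclin of mitosis, had log2 fold changes of -3.11 (SE 1.24, unadjusted p = 0.0261, edgeR adjusted p = 0.584) between the WT compartments and of 3.39 (SE 1.396, unadjusted p = 0.0349, adjusted p = 0.737) between the genotypes in endosteal BM. Without central WT library D the first was -2.32 (unadjusted p = 0.107), and without endosteal library B labelled Gfra2-/- the second was 1.96 (unadjusted p = 0.187). These comparisons share the endosteal WT libraries, in which Ccnb1 was low. Cdk1, the most abundant of the list at a median of 72.9 CPM, had -1.65 (SE 0.85) between the genotypes in central BM, and Ccnf had -1.39 (SE 0.997) between the WT compartments. Of the 19 other cyclins and kinases, outside the core of the cell cycle, Ccni (-1.30, SE 0.43), Ccnt1 (-1.63, SE 0.55) and Ccnl2 (1.38, SE 0.54) had the smallest p, all between the genotypes in central BM. None passed the FDR in edgeR, and DESeq2, which called 3.44% of its genes, called Ccni and Ccnt1 (adjusted p = 0.0709 and 0.0796). Ccnl2 was 0.91 (unadjusted p = 0.188) without central library A labelled Gfra2-/-, and Ccnt1 -1.13 (unadjusted p = 0.0574) without central WT library A. Cdk17 was the most abundant of them, at a median of 174 CPM.

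**Figure D5:**
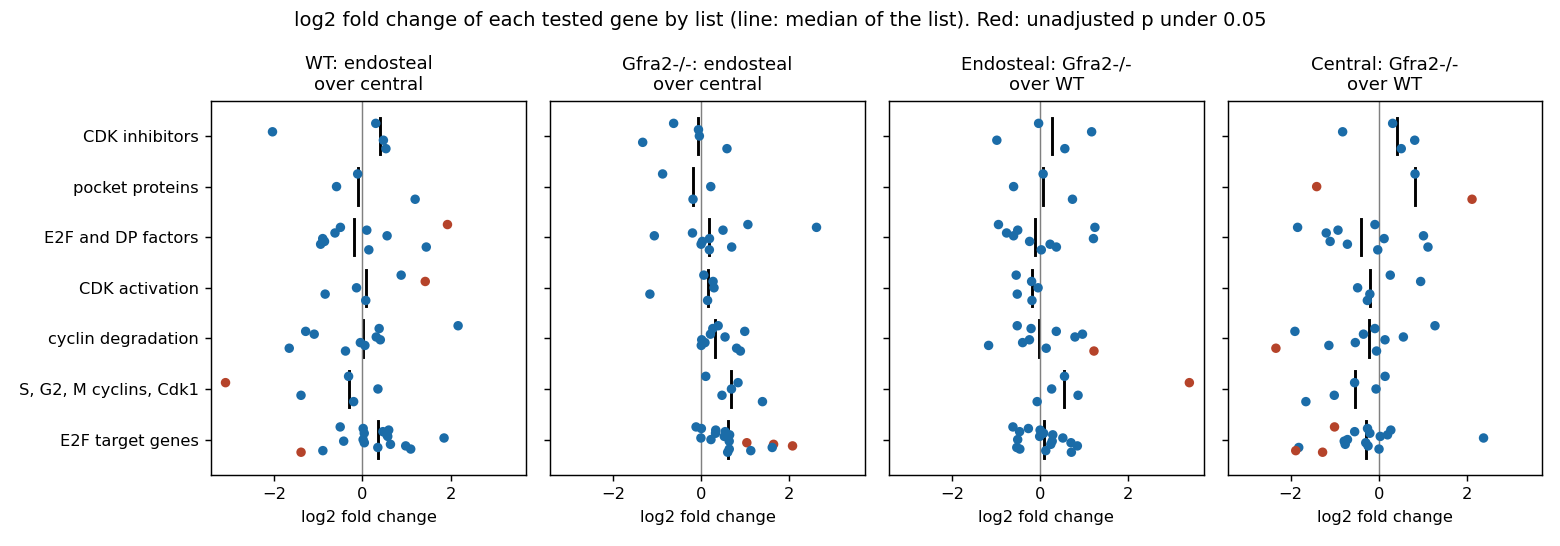
log2 fold change (x axis) of each tested gene of the 7 lists around the G1 kinases (y axis) in the 4 pairwise comparisons (panels). Red points have an unadjusted p under 0.05, and the black line is the median of a list. Between endosteal and central libraries labelled Gfra2-/- the median is 0.60 for the E2F targets and 0.69 for the S, G2 and M cyclins with Cdk1.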

How the data were processed

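RNA-Seq reads of 30-cell pools were aligned by the authors to GRCm38 with GSNAP and counted with HTSeq (version 0.5.3p3) without regard to strand. They deposited raw counts for 46078 genes, 92 spike-in RNAs and 5 summary categories. Of the 16 columns, 15 were assigned to groups through the sample list of the study, and 1 column was not mapped and not used. Symbols and exon lengths came from GENCODE M21, which holds 45229 of the genes. Promoter windows came from RefSeq (GRCm38.p6).

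Genes were tested with edgeR 4.0.16 (R 4.3.3) on the deposited counts of the groups compared, by the quasi-likelihood test after filterByExpr and TMM scaling. P-values were adjusted by Benjamini-Hochberg over all genes tested, at an FDR of 0.1. The standard error was derived from the log2 fold change and its F statistic. DESeq2 1.42.0 was run on the same filtered genes as an alternative. Scripts were tested on simulated data. Python 3.11.15 was used for promoters and figures. Other alternatives were other size factors, filters, thinned counts and a joint fit. Further ones were the spike-in class (under 0.5% of reads or not) as a term, a minimum of 1500000 reads counted on genes and leaving out each library.

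The 8 genes, the pathway lists and the marker lists were chosen with earlier results of these data known. Named were all 8 genes and, from each list, genes past the threshold or else the 3 with the smallest p, and the most abundant gene. Any other gene is marked as chosen later, and 1 marker gene is not reported here. Totals ran from 826487 to 18550008 counts per library. Reads were not collapsed to molecules, so the floors given cover counting error only. In pools, fewer expressing cells and less RNA per cell cannot be told apart.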

Additional observations from a re-analysis of the deposited data

Results flagged for a closer look

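Of 24 groups of 4 libraries examined for single libraries far from the others, 2 held one, both in Ccne1, and chance gives about 1 in 20. Ccne1 in central WT library B, at 36.38 CPM, stood apart from the other 3 libraries of the group by 91.7% of the range of the group, and in endosteal library D labelled Gfra2-/-, at 26.11 CPM, by 98.8%. The second of these libraries also carries 1820 CPM of B cell markers, whose part in the value was not tested.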

How the results depend on the processing

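None of the 8 genes passed an FDR of 0.1 under any alternative, and the lowest adjusted p was 0.262 (DESeq2, Ccnd1 between the WT compartments). Of 705 values under alternatives, 652 kept their direction, and 21 of 39 results never turned. Those of Ccnd1, Ccnd2, Ccnd3, Cdk4 and Cdk6 between the WT compartments were among them: Cdk4 stayed between 0.66 and 1.18 and Ccnd1 between -2.49 and -0.98, while Ccnd3 ran from 0.14 (spike-in size factors) to 1.34. The interaction of Ccnd2 stayed between 0.49 and 1.09.

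For the results that turned, the cause was not tested. In the WT comparison Ccne1 was -0.319 with the spike-in class as a term and -0.640 in libraries over 1500000 counted reads (Cdk2 0.202). Between the genotypes in central BM, Ccne1 was -2.20 with that term and -0.192 in those libraries, and Cdk2 was -0.00160 by DESeq2 and -0.00444 with its size factors. The interaction of Cdk2 was 0.138 by DESeq2, 0.141 with its size factors, 0.127 with spike-in factors and 0.0278 after thinning. With spike-in size factors the median over all tested genes, on the log2 scale, was 1.58 between the WT compartments, -0.46 between those of libraries labelled Gfra2-/-, -0.28 and 1.75 between the genotypes in endosteal and central BM, and -2.18 in the interaction. Relative to these medians, they gave -0.873 for Cdk6 and -0.393 for Ccne2 between compartments labelled Gfra2-/-, -0.669 for Ccnd1 between endosteal genotypes, -0.0108 for Ccnd3 between central genotypes, and interactions of -0.455 for Ccnd1 and 0.758 for Ccnd3. Without endosteal library D labelled Gfra2-/- and central WT library D, chosen after seeing the data, Ccne1 was -0.00118 between the WT compartments. Without them Cdk4 was -0.117 and Cdk2 -0.227 between endosteal genotypes, Cdk2 -0.0861 between central genotypes, and the interaction of Cdk6 0.0720.

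With each library left out in turn, Ccne1 ran from -0.245 to 3.35 and Ccne2 from -1.31 to 0.0933 between the WT compartments. Between those of libraries labelled Gfra2-/-, Cdk6 ran from -0.303 to 0.779, Ccne1 from -1.99 to 2.68 and Ccne2 from -0.115 to 0.982. Between endosteal genotypes Ccnd1 ran from -0.0734 to 1.14, Cdk4 from -0.204 to 0.367, Ccne2 from -0.213 to 0.934, Cdk2 from -0.227 to 0.288 and Cdk6 from -1.22 to -0.38, and Cdk2 between central genotypes from -0.106 to 0.321. The interactions ran from -0.750 to 0.280 for Cdk6, -7.07 to 2.38 for Ccne1 and -0.348 to 0.167 for Cdk2.

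The number of genes called at an FDR of 0.1 was less stable. Between the WT compartments it was 0, and 216 by DESeq2, 58 without a filter, 11 with at least 10 counts in every library and 4 after thinning. It was 22 in a joint fit of the 4 groups, 1 with the spike-in class as a term, 1 without both libraries D, and 0 to 6 with single libraries left out. Between the compartments labelled Gfra2-/- it was 0, and 156 by DESeq2 and 15 with spike-in factors. Between endosteal genotypes it was 0, and 132 by DESeq2, 6 with spike-in factors and 1 in the joint fit. Between central genotypes it was 6, and 371 by DESeq2, 2 with spike-in factors, 134 without a filter, 29 with at least 10 counts in every library, 18 after thinning, 0 at an FDR of 0.05, with libraries over 1500000 counted reads alone and without both libraries D, and 0 to 8 with single libraries left out. For the interaction it was 0, and 176 by DESeq2 and 193 with spike-in factors.

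No paired analysis was possible by name alone because the deposited columns have names without a replicate number, so the replicate block was not run. The sample titles share replicate numbers across the groups, and the columns run through the groups in the same cycle. The libraries with under 0.5% of spike-in reads were the last of each group in table order. Column order thus offers sets for such a block, but 1 column was not mapped and a fit by these sets was not tested. Central WT libraries, with at most 3367289 counts, limit the comparisons that use them, and Ccne1, at 0 in 3 libraries, has the widest intervals.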
